A study of Glycine soja with 14 samples.

Results

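MYB29 is an R2R3-type MYB transcription factor of soybean that activates isoflavonoid genes, and G4DT is the prenyltransferase that attaches a dimethylallyl group to the pterocarpan glycinol on the way to the glyceollins. All probe sets annotated with either symbol were taken, 2 for MYB29 and 2 for G4DT, from the 61170 probe sets of an Affymetrix soybean chip whose probes follow cultivated soybean (Glycine max). These are 2 of the 6029 gene symbols that stand alone on a soybean probe set. All 4 probe sets were among the 28567 bright and repeatable enough to be tested. They were chosen by their changes in intensity in earlier results of these arrays, which had shown them to move. Their levels and differences are therefore given as a description, with the standard error (SE) of the fit and no p-value.

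The RNA came from root tips, the last 3 cm, of wild soybean (Glycine soja) line G07256 at 21 days after germination, with the roots of 3 plants pooled for each array. Roots at 0 h stood in dilute Hoagland's solution without stress. The other roots were held for 0.5, 1, 3, 6, 12 or 24 h in the same solution with 50 mmol/L NaHCO3 at pH 8.5, an alkaline salt stress. Each of the 7 times had 2 biological replicates, 14 arrays in all. The 0 h arrays were the control of every comparison with 0 h, and no unstressed roots of a later hour were analysed here, so the treatment and the time of day cannot be told apart.

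Glyceollins are the phytoalexins of soybean, antimicrobial pterocarpans that roots and other organs make after attack by pathogens and after other stresses. Their synthesis starts from phenylalanine, passes through chalcones and isoflavones such as daidzein, and reaches glycinol through reduction, ring closure and hydroxylation. The prenyl group added by G4DT or by related enzymes commits glycinol to the glyceollins. In soybean, MYB29 has been described to act on the promoters of the isoflavone synthase gene IFS2 and the chalcone synthase gene CHS8.

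The deposited values were intensities on a linear scale, and differences were taken on the log2 scale. The background limit of an array was the intensity under which 95% of its Phytophthora sojae and Heterodera glycines probe sets lay, pathogen RNA that should not be in these roots, and it ran from 12.8 to 26.5 over the arrays. The bacterial control transcripts spiked into the hybridizations were dimmest on 0.5 h replicate 1 (mean log2 value 9.26) and 12 h replicate 2 (9.09), the other arrays lying between 9.92 and 10.51. Ribosomal 18S RNA, on the log2 scale, read 8.54 and 8.04 before stress, 10.01 and 10.54 after 3 h, 11.24 and 11.08 after 6 h, 9.30 and 6.57 after 12 h, and 8.47 and 9.57 after 24 h, so that its highest arrays were those of the time at which both genes were highest. Of the root markers sought, only the nitrate transporter gene NRT2 had a symbol on the array, and its intensity lay between 538 and 1380 on all arrays. Among 16 probe sets for seed proteins, 11 were not above background on any array, the bright ones being for Kunitz trypsin inhibitors. The sum of all 16 was 2170 and 3410 on the 0 h arrays, 8070 and 8350 after 6 h, 6120 and 7280 after 12 h, and 2700 and 4250 after 24 h, also highest at 6 h. The 5 probe sets of the leaf gene CAB3 summed to 4550 and 6590 on the 0 h arrays, 1130 and 1390 after 6 h, 187 and 202 after 12 h, and 7720 and 8910 after 24 h. The nodule genes N-26, N-26B and ENOD40B summed to between 80 and 2480. The part of the ribosomal signal and of these markers in the results below was not tested. Pooled root tips also cannot show whether fewer cells with a transcript or less transcript per cell lies behind a lower value.

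MYB29 was dim before stress, brightest after 6 h and below the background limit after 24 h. Both MYB29 probe sets, GmaAffx.57525.1.S1_at and GmaAffx.57525.1.S1_x_at, carry the same target number and are therefore not independent measurements. The suffix x marks probes that can also bind other transcripts, and the probe set with it is called the x probe set here and the one without it the plain probe set. On the plain probe set the intensities of replicates 1 and 2 were 37.6 and 19.9 before stress, 79.5 and 46.9 after 0.5 h, 43.7 and 16.8 after 1 h, and 82.8 and 89.8 after 3 h. They were 163 and 124 after 6 h, 39.6 and 40.8 after 12 h, and 13.2 and 10.6 after 24 h. Both 6 h arrays thus lay above all other arrays, and both 24 h arrays lay below all other arrays and below their background limits of 21.3 and 26.5. At 1 h the arrays spread across those at 0 h, and replicate 2 was not above background.

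The x probe set gave 35.6 and 11.4 before stress, 80.4 and 43.8 after 0.5 h, 50.3 and 21.9 after 1 h, 83 and 98.7 after 3 h, 176 and 137 after 6 h, 46.2 and 46.3 after 12 h, and 15.3 and 12.5 after 24 h. Here, too, the 6 h arrays were the highest and no other time overlapped them. The lowest value was that of 0 h replicate 2, which was not above background, so that the 24 h arrays, likewise not above background, lay between the 0 h arrays.

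**Figure D1:**
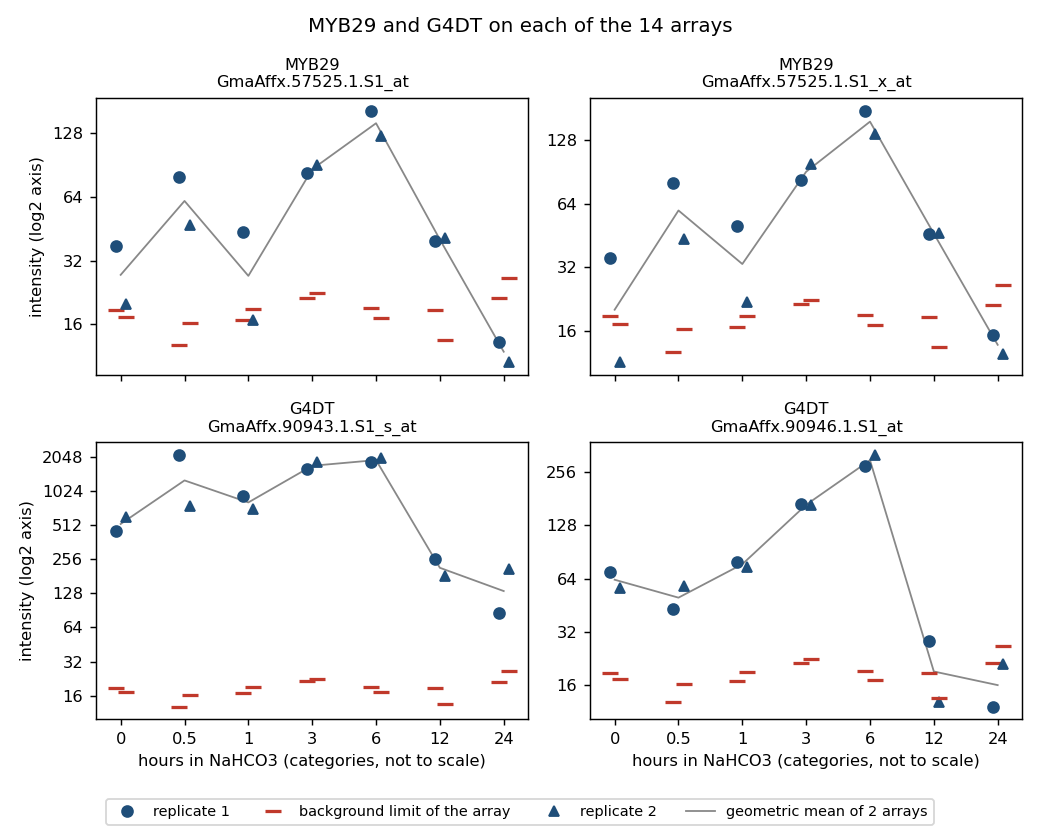
Intensity (log2 axis) of the 2 MYB29 and 2 G4DT probe sets at each time in NaHCO3 (hours, as categories), with circles for replicate 1, triangles for replicate 2, a line through the geometric mean of the 2 arrays and red bars for the background limit of each array. All 4 probe sets had their highest mean at 6 h and their lowest measured mean at 24 h, where all but GmaAffx.90943.1.S1_s_at were below background. G4DT fell below its 0 h arrays by 12 h, where MYB29 still lay above them.

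Relative to 0 h, the plain probe set was higher in log2 units by 1.16 after 0.5 h, 1.66 after 3 h and 2.38 after 6 h (SE 0.437 with 2 arrays at each time), and it differed by -0.02 after 1 h. The 6 h difference is a 5.19-fold rise of the mean, and among all tested probe sets 44 had a larger one. From 6 to 12 h the mean fell by 1.82, or 3.53-fold. At 12 h both arrays exceeded both 0 h arrays, by 0.56 in the mean, with a gap of 1.05-fold between the nearest arrays. That difference was 0.10 without 0 h replicate 2 and 1.02 without 0 h replicate 1. Since the 24 h arrays were below background, the 24 h level is known only as at least 1.69-fold lower than at 12 h and at least 1.15-fold lower than at 0 h, with measured differences of -1.76 and -1.21.

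The differences of the x probe set were 1.56 after 0.5 h, 0.72 after 1 h, 2.17 after 3 h, 2.95 after 6 h and 1.20 after 12 h (SE 0.517). These values rest in part on the dim 0 h replicate 2. Without that array the differences became 0.74, -0.10, 1.35, 2.13 and 0.38, and without 0 h replicate 1 they became 2.38, 1.54, 2.99, 3.77 and 2.02. The fall from 6 to 12 h (-1.75) does not involve the 0 h arrays. The level at 24 h, below background, was at least 1.95-fold lower than at 12 h. From high to low, the times of this probe set ran 6, 3, 0.5, 12, 1, 0 and 24 h. The arrays at 6 and 3 h, and at 3 and 0.5 h, did not overlap. Those at 0.5 and 12 h overlapped, as did those at 12 and 1 h, at 1 and 0 h, and at 0 and 24 h. On the plain probe set the order was 6, 3, 0.5, 12, 0, 1 and 24 h, and only the arrays at 0 and 1 h overlapped as neighbours.

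A further probe set of the same cluster of targets, GmaAffx.57525.3.S1_at, has no MYB29 symbol and so is not counted with the members, but the study's tables describe it as GmMYB29B2 protein. It was chosen after its values had been seen. Its intensities were 125 and 72 before stress, 386 and 308 after 6 h, 130 and 101 after 12 h, and 45.9 and 36.2 after 24 h, all above background. The log2 difference from 0 h was 1.86 after 6 h and -1.22 after 24 h, and the change from 6 to 12 h was -1.59 (SE 0.313). Its Pearson r with the x probe set was 0.949 over the 14 arrays. The last probe set of that cluster, GmaAffx.57525.2.S1_at, was too dim to be tested and read at most 10.6. On the brighter GmaAffx.57525.3.S1_at the 24 h arrays could be measured and lay below both 0 h arrays, while the 12 h arrays overlapped those at 0 h.

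G4DT was likewise higher at 3 and 6 h than at 0 h, and from 6 to 12 h it fell further than MYB29. GmaAffx.90943.1.S1_s_at, whose suffix s marks probes shared by several transcripts, was bright throughout and is called the bright probe set. The study's tables describe this probe set as a homogentisate phytyltransferase, a prenyltransferase of tocopherol synthesis. Its intensities were 457 and 601 before stress, 2140 and 753 after 0.5 h, 923 and 714 after 1 h, and 1590 and 1850 after 3 h. They were 1830 and 2020 after 6 h, 255 and 181 after 12 h, and 85.5 and 211 after 24 h. All arrays from 0.5 to 6 h lay above both 0 h arrays, and all arrays at 12 and 24 h lay below them.

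GmaAffx.90946.1.S1_at was dimmer, and is called the dim probe set, with intensities of 69.6 and 56.9 before stress, 43.3 and 57.7 after 0.5 h, 79.4 and 74.8 after 1 h, 168 and 167 after 3 h, 277 and 320 after 6 h, 28.4 and 12.8 after 12 h, and 12.1 and 21.1 after 24 h. At 3 and 6 h both arrays were above those of every other time. Replicate 2 at 12 h and both arrays at 24 h were not above background.

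**Figure D2:**
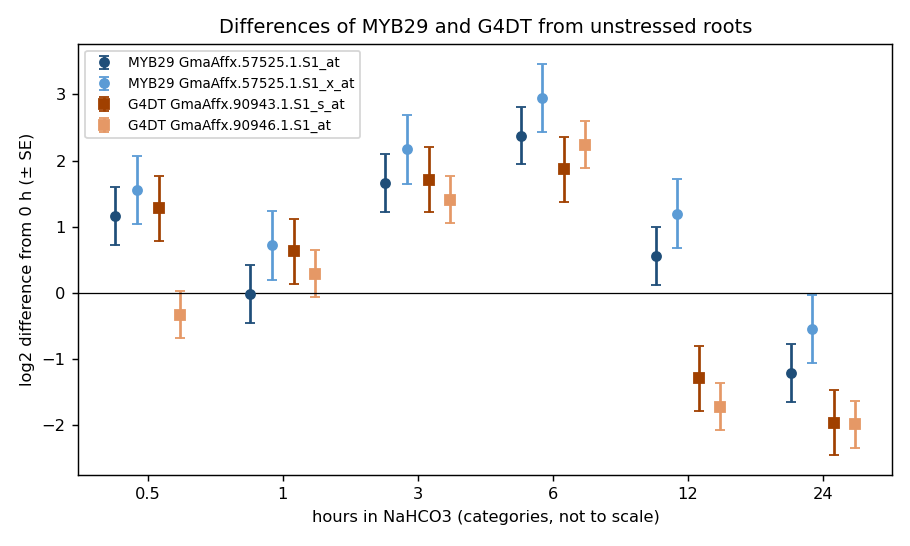
Log2 difference from the mean of the 0 h arrays (vertical axis) at each stress time (hours, as categories) for the 4 probe sets, with error bars of 1 SE of the limma fit. At 12 h the MYB29 probe sets stood at 0.56 and 1.20 and the G4DT probe sets at -1.29 and -1.72. The values of both MYB29 probe sets and of the dim G4DT probe set at 24 h come from arrays below the background limit, as does 1 of the 2 arrays of the dim G4DT probe set at 12 h.

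The G4DT probe sets gave log2 differences of 1.71 and 1.41 at 3 h, for the bright and the dim probe set in turn, and of 1.87 and 2.24 at 6 h (SE 0.490 and 0.356). These are 3.67-fold and 4.73-fold rises at 6 h. Between 6 and 12 h the changes were -3.16 and -3.97, falls of 8.95-fold and 15.6-fold. Of all tested probe sets, 73 fell further than the former in that interval and 11 fell further than the latter. At 12 h the differences from 0 h were -1.29 and -1.72. At 24 h they were -1.96 and -1.98, the latter a level at least 2.65-fold lower than at 0 h. The measured changes from 12 to 24 h were -0.68 (SE 0.490) and -0.26 (SE 0.356), and the arrays of these times overlapped on both probe sets.

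The G4DT probe sets parted at 0.5 h, with a difference of 1.28 on the bright and -0.33 on the dim one. The first value moved to 0.52 without 0.5 h replicate 1, one of the arrays with dim hybridization controls, and to 2.03 without 0.5 h replicate 2. At 1 h the differences were 0.63 and 0.29, and the arrays did not overlap those at 0 h on either probe set. In the order of levels, 6 h came first and 3 h second on both. Their arrays overlapped on the bright probe set (difference 0.17) but not on the dim one (0.83). Lower down, the arrays at 3 and 0.5 h, 0.5 and 1 h, and 12 and 24 h overlapped on the former, and those at 0 and 0.5 h, and at 12 and 24 h, on the latter. At 12 h replicate 2, the other array with dim controls, was the lower of the pair on both probe sets. Without it the change from 6 to 12 h was -2.91 and -3.39.

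Across the times the 2 genes shared the peak at 6 h and the lowest measured mean at 24 h. They differed at 12 h, when MYB29 was above and G4DT below the 0 h arrays on both of their probe sets. The MYB29 differences at 12 h shrank to 0.10 and 0.38 without 0 h replicate 2. On GmaAffx.57525.3.S1_at, the further probe set of the MYB29 cluster, the arrays at 12 and 0 h overlapped. Between 6 and 24 h the mean of the bright G4DT probe set differed 14.3-fold, a wider span of time means than in 99% of tested probe sets. The other 3 probe sets were below background at 24 h, so their spans are known only as at least 5.98-fold and 6.55-fold for MYB29 and at least 12.5-fold for the dim G4DT probe set. Their spread between replicates was also wide. The residual SD was 0.507 and 0.607 for MYB29 and 0.573 and 0.404 for G4DT on the log2 scale, more than in 82.2 to 95.5% of tested probe sets. Pearson's r over the 14 arrays was 0.974 within MYB29, 0.876 within G4DT and 0.694 to 0.785 between the genes. These arrays share the time course, so the correlations are descriptions only.

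The rest of the isoflavonoid pathway was then counted with a list of enzyme symbols that leaves out G4DT and MYB29. It held 75 soybean probe sets, of which 56 from 29 symbols were tested. Calls came from limma and needed both p under 0.05 and p under 0.15 after Benjamini-Hochberg adjustment over all tested probe sets. At 6 h, 40 of the 56 were called higher and 1 lower, where 8.67% of all tested probe sets were called higher and 12.1% lower. The median log2 difference was 1.14 in the list and -0.05 over all tested. At 3 h, 33 were called higher and 1 lower (5% and 12% of all tested), with a median of 0.80 against -0.14. Between 6 and 12 h, 50 were called lower and 0 higher, against 18.6% and 15.3% of all tested. The median change was -1.31 against 0.

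At 12 h, 9 were called higher and 11 lower than at 0 h (7.95% and 16.4% of all tested). This balance rested on single arrays, with 4 higher and 19 lower without 12 h replicate 1 and 3 higher and 7 lower without 0 h replicate 2. With replicates taken as blocks, 5 were higher and 11 lower. At 24 h, 5 were higher and 20 lower (6.07% and 19.6% of all tested, 25.6% in all). At 0.5 h, 6 were higher and 1 lower, against 2.26% and 3.27% (5.54% in either direction). Between 3 and 6 h, 4 were higher and 1 lower, against 8.05% and 4.56% of all tested (12.6% in all). Between 12 and 24 h, 7 were higher and 14 lower, against 12.1% and 19.8% (31.9% in all). At 1 h limma called 0, with 6 at an unadjusted p under 0.05, where it called 0.553% of all tested. The methods' t-test called 0 of all tested at 1 h, so its 0 in the list adds nothing. The comparisons with 0 h share the 0 h arrays, and those at 6 h and from 6 to 12 h share the 6 h arrays. Leaving out any one of the 0 h or 3 h arrays leaves 1 array at that time. The calls at 3 h then fell strongly, both in the list (from 34) and over all tested (from 17%). At 6 h they fell in both, from 41 and 20.7%, without 0 h replicate 1 or 6 h replicate 2. At 12 h they fell in both, from 20 and 24.3%, without 0 h replicate 2. At 24 h they fell in both, from 25 and 25.6%, without that array or 24 h replicate 1.

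The balance over all tested probe sets turned with the scaling between arrays. Centring each array on its median gave 2381 higher and 1548 lower at 3 h, where the deposited scale gave 1428 and 3421, and 4584 higher and 3396 lower at 24 h in place of 1733 and 5594. Between 3 and 6 h centring gave 1733 against 1665 (from 2301 and 1304), between 6 and 12 h quantile normalization 5743 against 4453 (from 4358 and 5326), and between 12 and 24 h centring 4565 against 4056 (from 3446 and 5654). On the centred scale the pathway list had 39 higher and 1 lower after 3 h, 43 and 1 after 6 h, and 9 and 14 after 24 h.

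**Figure D3:**
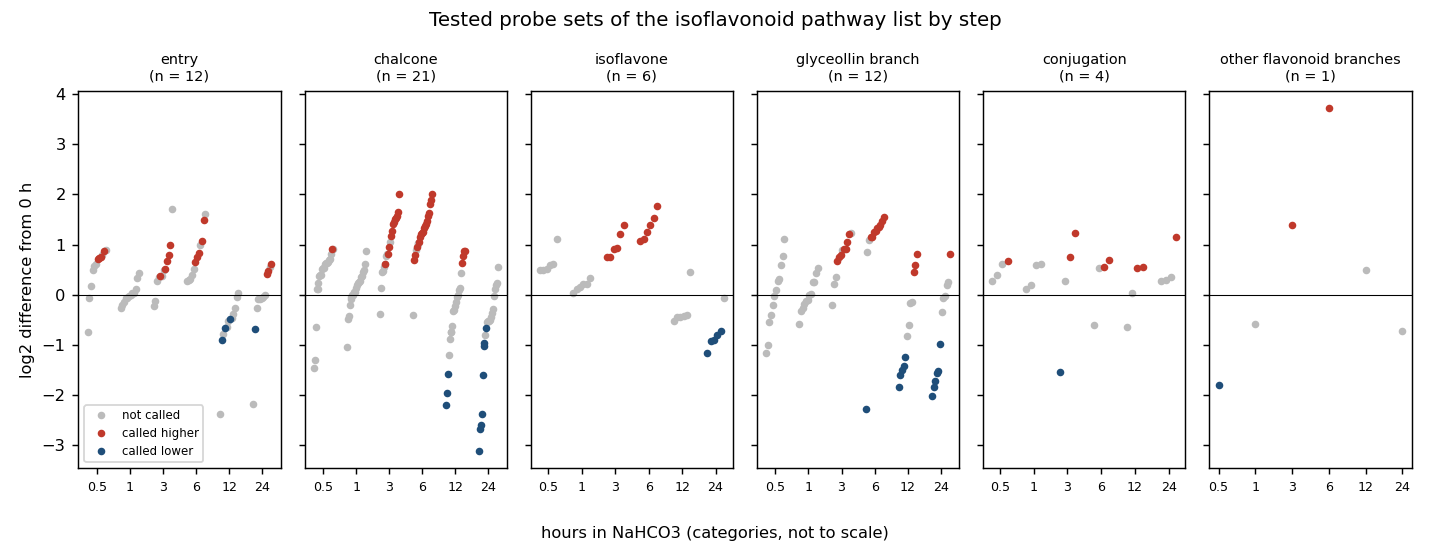
Log2 difference from 0 h (vertical axis) at each stress time (hours, as categories) of each tested probe set of the isoflavonoid pathway list, grouped by step. Most points lay above 0 at 6 h (40 of 56 called higher than at 0 h). In the direct comparison of 12 h with 6 h, which is not drawn here, 50 of 56 were called lower.

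By step, the isoflavone enzymes moved as a whole. All 6 of their probe sets were called higher at 3 h and at 6 h, and all 6 fell between 6 and 12 h. IFS2, an isoflavone synthase that converts flavanones toward isoflavones, read 2190 and 2110 before stress, 7180 and 7480 after 6 h, and 1940 and 1370 after 12 h. It rose by 1.77 at 6 h (SE 0.358, adjusted p from limma 0.014). HIDH, the dehydratase that completes the isoflavone, rose by 1.53 and IFS1, the other isoflavone synthase, by 1.39. At 12 h limma called 0 of the 6, with 0 also at an unadjusted p under 0.05.

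In the chalcone step, 17 of 21 probe sets were higher at 6 h and 20 fell from 6 to 12 h. A chalcone synthase gene, CHS1, had intensities of 269 and 270 before stress, 1040 and 1130 after 6 h, 242 and 106 after 12 h, and 46.2 and 58.4 after 24 h on the probe set with the larger change. It rose by 2.01 at 6 h (SE 0.492, adjusted p from limma 0.0305) and a second CHS1 probe set by 1.81. CHR5, a chalcone reductase, which works with chalcone synthase to give the precursor of daidzein, rose by 1.88 (SE 0.296, adjusted p 0.00485). For CHS8, looked at after its values had been seen because of its tie to MYB29, 4 of 5 probe sets were higher at 6 h, by 0.70 to 1.46, and the fifth differed by 1.01 without a call. All 5 were called lower from 6 to 12 h, with changes between -1.63 and -0.65.

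The entry step, from phenylalanine to the activated coumarate, had 5 of 12 probe sets called higher at 6 h, and all 12 fell between 6 and 12 h. The coumarate ligase genes 4CL3 and 4CL4 rose by 1.48 and 1.08 at 6 h (SE 0.219 and 0.273). PAL2.1, a phenylalanine ammonia-lyase, had a difference of 1.60 that was not called (SE 1.18, adjusted p from limma 0.442). Its 12 h arrays read 297 and 8.03, the lower one on replicate 2. Of the 2 other PAL2.1 probe sets, named after their values had been seen, 1 was called higher at 6 h by 0.83 (SE 0.187, adjusted p 0.0219), and the remaining one differed by 1.00 without a call.

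In the branch from isoflavones to glyceollins, 9 of 12 probe sets were higher at 6 h and 11 fell from 6 to 12 h. IFR, an isoflavone reductase, read 551 and 795 before stress, 1970 and 1880 after 6 h, 331 and 419 after 12 h, and 164 and 323 after 24 h. Its 6 h difference was 1.54 (SE 0.473, adjusted p from limma 0.0698). CYP93A2, a cytochrome P450, rose by 1.47. CYP71D10, another cytochrome P450, went the other way, from 144 and 122 at 0 h to 26.8 and 27.6 at 6 h, a difference of -2.28 (SE 0.248, adjusted p 0.00117), and it was the only member of the list called lower at that time. CYP93A1, the hydroxylase that makes glycinol, the substrate of G4DT, was looked at after its values had been seen. Its 2 probe sets rose by 1.33 and 1.39 at 6 h. They were called lower than at 0 h at 12 h (-1.43 and -1.60) and at 24 h (-1.72 and -1.56). The sign at each of these times was the one measured for G4DT, but the branch was divided at 12 h. Of its 12 probe sets, 3 were called higher and 5 lower than at 0 h (7.95% and 16.4% of all tested), with CYP93A2 among the higher (0.59). At 24 h, 1 was called higher and 6 lower (6.07% and 19.6% of all tested).

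Outside the route to glyceollins fewer probe sets could be read. Of 4 for conjugation, 2 of IF7MaT, which adds malonyl groups to isoflavone glucosides, rose at 6 h by 0.69 and 0.56, and IF7GT, the glucosyltransferase before it, differed by -0.60 without a call. F3H, a flavanone hydroxylase leading to flavonols and anthocyanins, was the one tested probe set of 9 on the other flavonoid branches. It rose from 17 and 20.3 to 251 and 240 at 6 h (3.72, SE 0.329, adjusted p from limma 0.000364) and fell to 30.8 and 22.2 at 12 h. Its 0 h level lay close to the background limits of those arrays, 18.8 and 17.3, and replicate 1 was not above its limit. The size of the rise is therefore uncertain.

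Likeness to the members was measured as Pearson's r of the means over the 7 times. The median r of the 56 pathway probe sets was 0.797 and 0.765 with the MYB29 probe sets and 0.793 and 0.782 with those of G4DT, while the medians over all tested probe sets lay between -0.0218 and -0.0103. An r over 0.9 was reached with the plain probe set of MYB29 by 19 of 56 (33.9%, against 1.45% of all tested). With the x probe set it was reached by 11 (19.6%, against 1.03%). For G4DT it was reached by 19 with the bright probe set (33.9%, against 4.79%) and by 20 with the dim one (35.7%, against 2.98%). IF7GT had the lowest r with every member, from -0.752 to -0.57.

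Of 7387 tested probe sets with a single symbol, LOC100786978 was most like MYB29 (x probe set, r = 0.995 over 7 times), followed by LOC732570 (0.985 and 0.976 on different probe sets) and the chalcone isomerase gene CHI1B1 (0.979). LOC100170738, LOC100777106, LOC100816035, LOC732592, LOC100799303 and the isoflavone synthase gene IFS1 (0.966) completed the 10 nearest probe sets. Pearson's r takes no account of the size of a change. Their 6 h differences ran from 0.64 to 3.14, against 2.95 for MYB29, and that of LOC100816035 (0.64) was not called (adjusted p from limma 0.221). CHI1B1 rose by 1.62 at 6 h and fell by 0.74 from 6 to 12 h, a smaller fall than rise, as for MYB29. It is named here for its likeness to MYB29, so a shared shape follows from the choice.

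Nearest to G4DT (bright probe set) was IFR, with r = 0.996. After it came LOC100306378, LOC100794576, LOC100779173, MYB92 (0.991), LOC100780605, LOC100815336, the histone gene H4, the cytochrome P450 gene CYP82A2 (0.99) and PRX4 (0.989). The 6 h differences of these 10 ran from 0.31 to 1.75, against 1.87 for G4DT. Those of H4 (0.31) and LOC100794576 (0.86) were not called (adjusted p from limma 0.29 and 0.188). CYP82A2 and IFR fell by 3.15 and 2.37 from 6 to 12 h, more than they had gained by 6 h (1.42 and 1.54), as G4DT did. Both are named here for their likeness to G4DT, so this shared shape, too, follows from the choice. G4DT itself ranked 271 in likeness to MYB29, and MYB29 ranked 703 in likeness to G4DT (r = 0.798 in both directions).

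**Figure D4:**
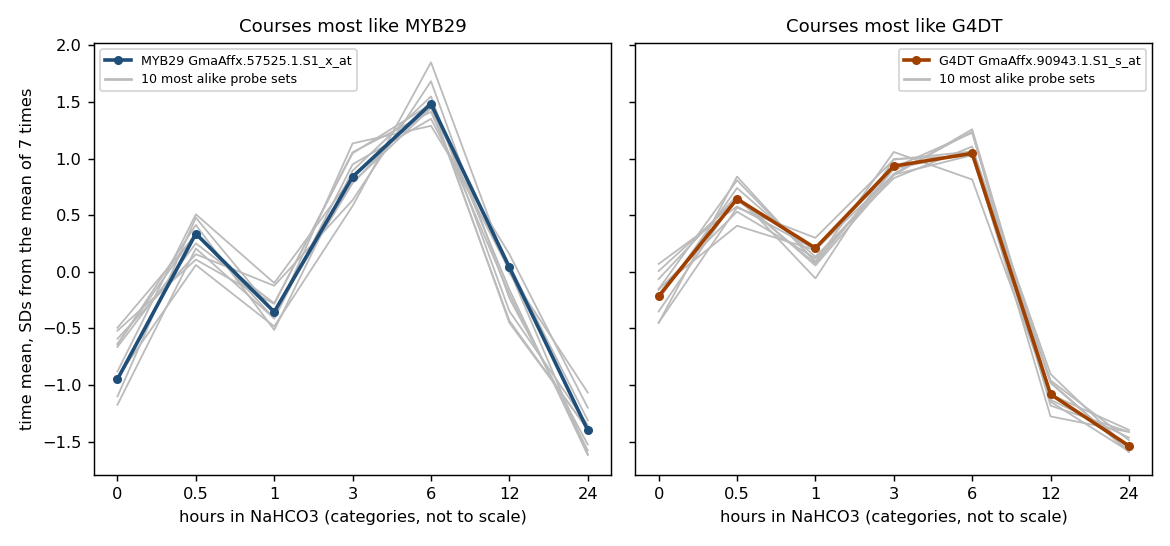
Standardized mean log2 intensity (vertical axis, z score over the 7 times) at each time (hours, as categories) of MYB29 and of G4DT in colour, each with its 10 most alike tested probe sets in grey. At 12 h MYB29 stood at 0.04 and G4DT at -1.081.

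Among other MYB factors tied to the pathway, 11 probe sets were on the array and 10, from 4 symbols, were tested. At 6 h, 5 were called higher and 0 lower (8.67% and 12.1% of all tested), and 6 fell between 6 and 12 h (18.6% of all tested). At 24 h, 3 were higher and 6 lower than at 0 h (6.07% and 19.6% of all tested). MYB92 rose by 1.72 and 1.84 at 6 h on 2 of its 3 probe sets (SE 0.319 and 0.265, adjusted p from limma 0.00961 and 0.00336), and the third differed by 0.91 without a call. MYB12A rose on its 3 probe sets by 1.68, 1.59 and 1.44 at 3 h and by 1.20, 1.11 and 0.90 at 6 h. Its changes from 3 to 6 h, -0.55 to -0.47 (SE 0.222 to 0.323), were not called. Those of MYB29 were 0.72 and 0.78 (SE 0.437 and 0.517), and a difference in course between these genes was not tested. MYB176, a soybean activator of CHS8, differed by -0.24 at 6 h (SE 0.193, adjusted p 0.492) and was not called. MYB133 differed by -0.25 to 0.18 at 6 h, and its 3 probe sets were higher at 24 h, by 0.82 to 0.99, when both genes described here were at their lowest.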

How the data were processed

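The authors hybridized RNA of root tips to 14 arrays and computed the deposited values with dChip (perfect-match probes only) as intensities on a linear scale. Per the methods, a baseline array of each time took the median level of all 14 arrays, and its replicate was fitted to that baseline by an invariant set. The spread between replicates thus holds no technical difference between times. No version of dChip is given in the sources used here.

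Intensities under 1 were raised to 1 (3 values) and log2 was taken. Of 37594 soybean probe sets, 28727 had a mean log2 intensity above 3.91, the 95th percentile of 23350 pathogen probe sets. Those whose median SD/mean of replicates was also above 0 and under 0.5 were tested, 28567 in all. One fit of 7 time groups was made with limma 3.58.1 in R 4.3.3 (7 residual and 3.24 prior degrees of freedom). The median SE of a difference was 0.236, and 2 arrays per time limit the precision. Calls used the limits of the methods, an unadjusted p under 0.05 and an adjusted p under 0.15. A bound for a level below background was the bright group's mean against, on each array, the higher of the background limit and the dim value.

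Gene symbols came from the annotation of the array, in which 8677 soybean probe sets have 1 symbol. The pathway list and the MYB list were matched on symbols. Named are both members, up to 3 probe sets per pathway step with the largest difference at 6 h, the 10 nearest in time course to the brightest probe set of each member, and the listed MYB factors. Members and lists were chosen with earlier results of these data known. Correlations of replicate differences between times ran from -0.349 to 0.295 and exceeded 0.1 in 6 of 21 pairs, so replicates were not paired. The procedure was tested on simulated data. Alternatives were other scalings, filters, a floor of 16, a replicate block, other variance models, the methods' t-test, and each array left out in turn. Sequences and genome positions of the members were not used here.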

Additional observations from a re-analysis of the deposited data

How the results depend on the processing

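All 4 probe sets kept their direction at 3 h and 6 h against 0 h, and from 6 to 12 h, under every alternative run. Of 288 recomputed differences, 280 kept their direction, which a replicate block cannot change. Only dim values turned: MYB29 at 1 h (plain probe set from -0.02) and 24 h and the dim probe set of G4DT between 12 and 24 h. With single arrays left out, the differences of the x probe set of MYB29 from 0 h ranged from 0.74 to 2.38 at 0.5 h, -0.10 to 1.54 at 1 h, 1.35 to 2.99 at 3 h, 2.13 to 3.77 at 6 h, 0.38 to 2.02 at 12 h and -1.36 to 0.28 at 24 h. Each end is the value without one 0 h array. Those of the bright probe set of G4DT ranged from 0.52 to 2.03 at 0.5 h and from -2.62 to -1.31 at 24 h, and its change from 12 to 24 h became -0.03 without 24 h replicate 1.

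The pathway counts, 7, 0, 34, 41, 20 and 25 called at the stress times in order, ranged with single arrays left out from 2 to 22, 0 to 0, 8 to 39, 23 to 46, 10 to 23 and 12 to 27. The count at 0.5 h was 2 to 4 without either 0 h array or 0.5 h replicate 1, 22 without 0.5 h replicate 2, and 13 without either 12 h array. The 5 calls between 3 and 6 h became 2 to 8 (2 without any one 3 h or 6 h array, 3 without a 0 h array, 8 without a 12 h array), the 50 between 6 and 12 h became 35 to 51, and the 21 between 12 and 24 h became 8 (without 24 h replicate 1) to 23. The methods' t-test called 0 at 0.5, 3, 12 and 24 h, 13 at 6 h, 0 between 3 and 6 h, 7 between 6 and 12 h and 0 between 12 and 24 h. Limma on the 4 arrays compared gave 1 at 0.5 h, 12 at 12 h, 24 between 3 and 6 h and 8 between 12 and 24 h. It called 1.02%, 14.4%, 24.8% and 11.8% of all tested there. Between 3 and 6 h, centring each array gave 3, an intensity trend with a robust prior 8, and a replicate block 3. They called 11.9%, 13.2% and 12.2% of all tested there. The block moved no other total by over 1.5 times, and the numbers do not pair the samples. By direction, it moved those called higher at 12 h, from 9 to 5, and between 3 and 6 h, from 4 to 2. Quantile normalization moved the median of all tested probe sets from -0.13 to 0.01 at 24 h and from -0.04 to 0.09 at 12 h, and centring moved the former to 0.09. Over all tested probe sets, quantile normalization and centring gave 788 higher against 755 lower and 918 against 820 at 0.5 h (from 647 and 935), 1558 against 2110 with quantile normalization at 3 h (from 1428 and 3421), and 4267 against 3801 and 4069 against 3851 at 12 h (from 2271 and 4673). Centring gave 3360 against 2703 at 6 h (from 2477 and 3445) and quantile normalization 3466 against 4226 at 24 h (from 1733 and 5594). The pathway split at 24 h, 5 higher and 20 lower, became 7 and 22 or, with centring, 9 and 14. Adding CHI2-A and CHIA1, an alternative chosen after seeing the data, changed no count by more than 1. With single arrays left out, the counts in 1 direction ranged at 12 h from 3 to 9 higher and from 7 to 19 lower, at 24 h from 2 to 6 higher (2 without 0 h or 24 h replicate 2) and from 10 to 22 lower, and between 12 and 24 h from 5 to 11 higher and from 2 to 15 lower (11 and 6 without 12 h replicate 1). The 9 higher at 12 h became 4 without either 6 h array, 0 h replicate 1 or 12 h replicate 1.

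What limits the members is brightness: MYB29 was above background on 0 of 2 arrays at 24 h, its x probe set on 1 of 2 at 0 h, the baseline of its differences, and its plain probe set on 1 of 2 at 1 h. The dim probe set of G4DT was above background on 1 of 2 at 12 h and 0 of 2 at 24 h.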
